A study of Mus musculus with 4 samples.

Results

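The islands with the least methylation signal in these mouse embryonic stem cells were 1549 of the 14121 CpG island regions measured, or 10.97%, covered by 10220 probes. Genomic DNA came from 4 samples: untreated wild type J1, a male embryonic stem cell line, 2 Parp-1 deficient clones derived from J1 (210-58 and 226-47), and J1 treated with the PARP inhibitor PJ34. On each of 4 arrays, 1 per sample, DNA immunoprecipitated (IP) with an antibody against 5-methyl cytidine carried Cy5 and whole DNA of the same cells carried Cy3. A region was a run of at least 3 probes with starts at most 500 bp apart, and its value was the mean log2 ratio of IP to whole DNA over its probes, with each array centred so that 0 is the typical probe. Members were the regions whose mean over the 4 arrays lay below -1, so their low level is how they were chosen and is given as a description with no test. Each clone is a single line, the wild type and PJ34 groups had no replicate, and no dose or duration of PJ34 is stated in the labels. Positions are those of the files and fit mouse build mm8. Neither a gene annotation nor a genome of that build was used, so regions are named by position and no sequence is shown.

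CpG islands are short stretches rich in CG dinucleotides, and most of those at promoters of active or housekeeping genes are kept free of DNA methylation in embryonic stem cells. The antibody in MeDIP captures DNA fragments that carry methylated cytosines, so an unmethylated island, or one with few CpGs, is poorly recovered and gives a low ratio. Parp-1 is a nuclear enzyme that adds poly(ADP-ribose) chains to proteins, and these chains have been linked to protection of islands from methylation.

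The low values came from the IP channel. The median raw Cy5 signal of member probes was 86 on wild type, 86 on clone 210-58, 103 on clone 226-47 and 85 on PJ34, over local backgrounds of 56.5 to 57.5, against 132 to 154 for all probes in regions. On the log2 scale the processed Cy5 signal of members lay below that of all probes by a difference in medians of -1.502, -1.63, -1.15 and -1.60 in that order of arrays, whereas the Cy3 difference was only -0.08 to -0.12. Cy5 was flagged well above background for 81.8% of member probes on wild type, 81.1% on clone 210-58, 95.04% on clone 226-47 and 75.5% on PJ34, compared with 91.3% to 98.0% of all probes in regions. No probe of the region passed that flag in 4 members on wild type, 6 on clone 210-58, 0 on clone 226-47 and 7 on PJ34. Every probe passed it in 502, 489, 1135 and 310 members. The Cy3 flag was passed by 99.87% to 99.90% of member probes on the 4 arrays. The number of arrays limits the precision, and a ratio whose Cy5 signal lies close to background is imprecise.

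The members formed the lower flank of the main peak of regions around 0. Their mean over the 4 arrays ran from -2.94 to just under -1, with a median of -1.27 and quartiles of -1.49 and -1.11, and 826 lay more than 0.25 below the limit, 378 more than 0.5 below it, 55 below -2 and 5 below -2.5. The median member was at -1.35 on wild type, -1.499 on clone 210-58, -0.94 on clone 226-47 and -1.41 on PJ34. Clone 226-47 was thus the highest of the 4, and it also had the narrowest profile over all regions, with an interquartile range of 0.999 against 1.37 to 1.48 on the others. Below -1 lay 1319 members on wild type, 1446 on clone 210-58, 608 on clone 226-47 and 1413 on PJ34. By rank, which takes no account of the width of the profile, the arrays were closer: 1216, 1278, 1309 and 1261 members were among the 1549 lowest regions of the same arrays. All 4 arrays were below -1 in 540 members, 3 arrays in 639, 2 in 339 and 1 in 31.

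**Figure D1:**
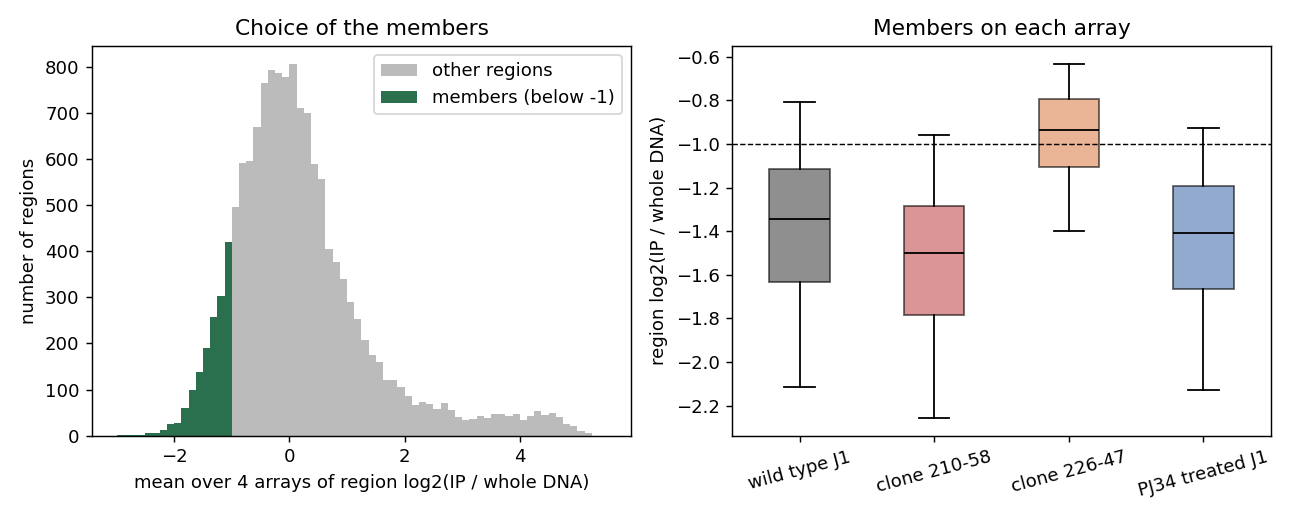
Left, the number of regions by their mean log2 ratio of IP to whole DNA over the 4 arrays, with the 1549 members (below -1) in green and the other regions in grey. Right, the members' values on each array: boxes show the quartiles and median, whiskers the 5th and 95th percentiles, and the dashed line is -1. The members are the lower flank of the main peak, and clone 226-47 had the highest median, -0.94.

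No gap in values separated members from the regions just above the limit. Just inside it lay the regions at chr17:75456794-75457114, at chr11:23670432-23671608 and at chr11:58979548-58980061. Just outside lay those at chr10:87576299-87577049, at chr1:9685836-9686149 and at chr1:59181369-59182112. The first of these pairs had values of -1.02 and -0.84 on wild type, -0.68 and -1.39 on clone 210-58, -0.73 and -0.76 on clone 226-47, and -1.58 and -1.01 on PJ34. Regions on the 2 sides of the limit were thus in mixed order on single arrays.

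Values left out of a choice by the same limit were described in 2 ways. Regions were chosen by the same limit on the mean of 3 arrays and then read on the fourth. Read on wild type, 1188 of 1529 regions chosen on the other arrays (77.7%) were below -1, with a median of -1.30, and 1524 were below 0. Read on clone 210-58 it was 1209 of 1368 (88.4%, median -1.51), and on PJ34 1254 of 1437 (87.3%, median -1.40). Read on clone 226-47 only 606 of 1879 (32.3%) were below -1, with a median of -0.87, but all 1879 were below 0. For comparison, 12.8%, 15.6%, 14.1% and 4.37% of all regions were below -1 on wild type, clone 210-58, PJ34 and clone 226-47. On each array the share was thus several times that of all regions. The array left out carries the same probes, so whatever the probes bring with them, such as their length, is repeated on it. This reading therefore does not tell what made the values low. The other reading was weaker. Of 7780 regions with at least 6 probes, 1140 were below -1 on their odd-numbered probes, at a median of -1.30. On their even-numbered probes the same regions had a median of -0.86 with quartiles of -1.29 and -0.38, and 477 (41.8%) were below -1, against 14.04% of all such regions. The median SD over the probes of a member was 0.86, close to 0.88 over all regions, and a median of 66.7% of a member's probes were below -1. All probes were below -1 in 153 members, and at least 1 probe was above 1 in 250.

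The 12 lowest members lay on chromosomes 2, 3, 5, 8, 9, 11, 13 and 15, and 4 of them were on chromosome 13. The lowest of all, at chr13:23592375-23592850 (5 probes), had -3.18 on wild type, -3.27 on clone 210-58, -2.20 on clone 226-47 and -3.12 on PJ34. On wild type, clone 210-58 and PJ34 Cy5 of all 5 probes was not well above background, so those 3 values rest on signals close to background and are imprecise. The next, at chr13:23691502-23692124 (3 probes), was at -3.30, -2.88, -2.66 and -2.22 in the same order, and none of its probes was well above background on wild type or PJ34. The third, at chr8:78005521-78006058 (5 probes), was better measured. It had -3.05 on wild type, -3.20 on clone 210-58, -1.55 on clone 226-47 and -3.15 on PJ34, with 3, 2, 5 and 2 probes well above background. Clone 226-47 was the highest array in the first and the third of these regions and PJ34 in the second.

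At chr11:102696749-102697387 (4 probes) the values were -2.98 on wild type, -2.999 on clone 210-58, -1.66 on clone 226-47 and -2.81 on PJ34. At chr15:99079737-99080340 (4 probes) they were -2.26, -3.16, -1.75 and -2.90. Region chr3:96305249-96306338 (5 probes) was at -2.76, -2.65, -1.84 and -2.71. Here too clone 226-47 was the highest array. A further pair on chromosome 13, from 21787936 to 21788241 (3 probes) and from 21794248 to 21794939 (4 probes), had -1.95 and -2.84 on wild type, -2.94 and -2.52 on clone 210-58, -2.26 on clone 226-47 in both, and -2.67 and -1.91 on PJ34. No more than 1 probe of either was well above background on any array. The others were at chr5:58004012-58004501 (mean over the arrays -2.38, SD 0.43), chr11:77992686-77993512 (-2.38, SD 0.49), chr2:29610407-29610715 (-2.34, SD 0.62) and chr9:20395040-20395516 (-2.30, SD 0.60). All 12 were at -1.42 or lower on every array, and clone 226-47 was the highest array in all but 3 of them. Only 3 members of the 1549 were below -2 on all 4 arrays: the 2 lowest and the region at chr2:132507237-132507796, at -2.55, -2.03, -2.0 and -2.20.

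**Figure D2:**
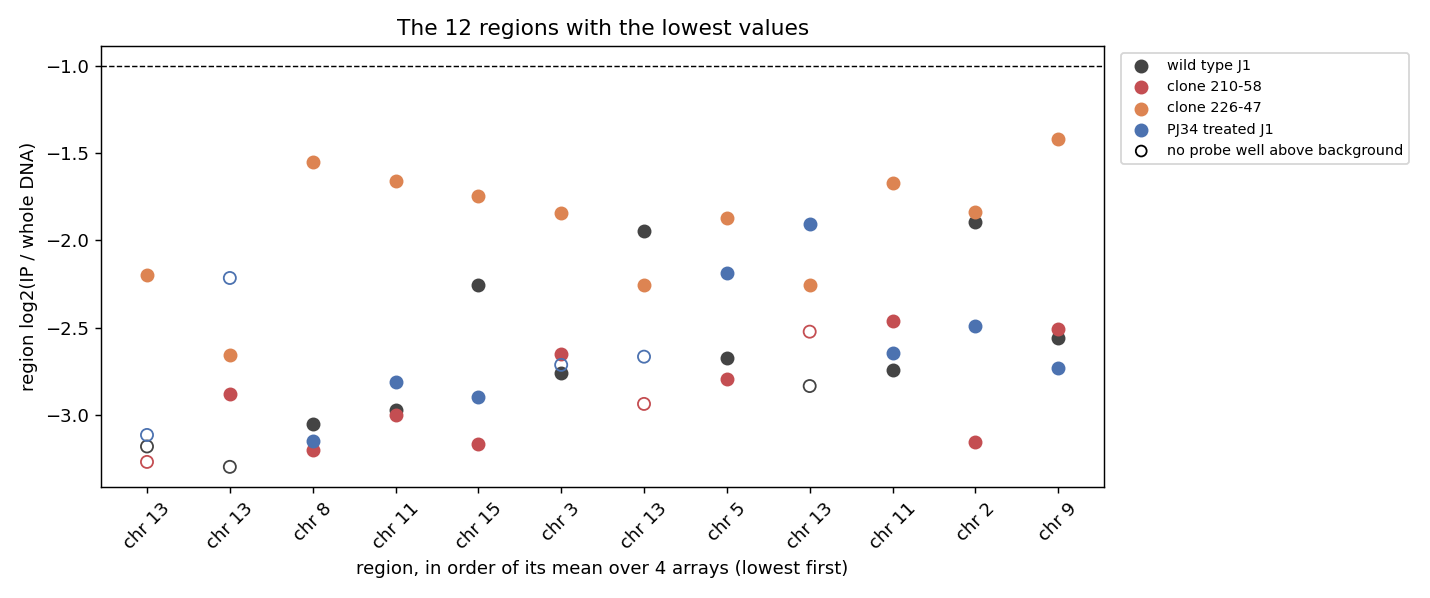
The region log2 ratio of IP to whole DNA on each of the 4 arrays for the 12 regions with the lowest means, lowest first. Colours mark the arrays, open circles mark a value for which no probe of the region had Cy5 well above background, and the dashed line is -1. Clone 226-47 is the highest array in most of these regions, and several of the lowest values are open circles.

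Members were denser in one stretch of chromosome 13 than in any other window of the array. Of 623 windows of 1 Mb with at least 8 regions, the median held 10% members, 161 held none, and the highest share was 72.2%, which was 13 of 18 regions at chr13:23376261-23771457. These 13 members had medians of -2.15 on wild type, -2.07 on clone 210-58, -1.34 on clone 226-47 and -1.97 on PJ34, against -1.35, -1.499, -0.94 and -1.41 for all members. The 5 other regions of the window lay at -0.98 to -0.12. The longest unbroken series of members, 8 consecutive regions over 182 kb from 23588976 to 23771457, was inside it and included the 2 lowest regions of the array. Its members from 23588976, 23746085, 23758470 and 23771066 were at -2.15, -1.72, -2.10 and -2.28 on wild type and at -1.97, -2.13, -2.07 and -2.01 on clone 210-58. The remaining members of the series, from 23629873 and 23768269, were at -1.51 and -1.30 on wild type and at -1.85 and -1.76 on clone 210-58. A further series of 4 members with 14 probes lay on the same chromosome from 21723611 to 21794939, at -2.45 to -1.28.

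Chromosome 13 carries the main cluster of replication-dependent histone genes in the mouse, which encode the core and linker histones made in S phase, and a smaller cluster lies on chromosome 3. Of 67 protein-coding genes with a cluster-type histone name in the RefSeq gene table at hand, 54 were on chromosome 13 and 10 on chromosome 3. That table is for GRCm38, so it was not overlaid on these positions, and whether the members of this stretch lie at histone genes was not tested. Several measurements set the stretch apart beside its low ratio. Of the 52 probes of its 13 members 65.4% were longer than the usual 45 bases, against 34.1% of all member probes. The raw whole-DNA signal was weak there, at a median of 190 to 196.75 against 274 to 292 for all members, and raw Cy5 was 70.5 to 77.25 over a background of 57 to 57.25. Cy5 was well above background for 23, 25, 42 and 24 of the 52 probes on wild type, clone 210-58, clone 226-47 and PJ34. With the median of probes of the same length subtracted, 12 of the 13 stayed below -1, at a median of -1.32 against -1.15 for all members. After normexp background correction, which added 50 to both channels, their median was -0.31, above the -0.50 of all members. Such an offset draws the ratios of weak signals towards 0, and both channels were weak in this stretch. After intensity loess the median was -0.54 against -0.66. The order of the stretch and all members thus turned under both, and the part of the offset in this was not tested. The separate series of 4 members on this chromosome had medians of -0.19 after normexp and -0.16 after intensity loess.

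**Figure D3:**
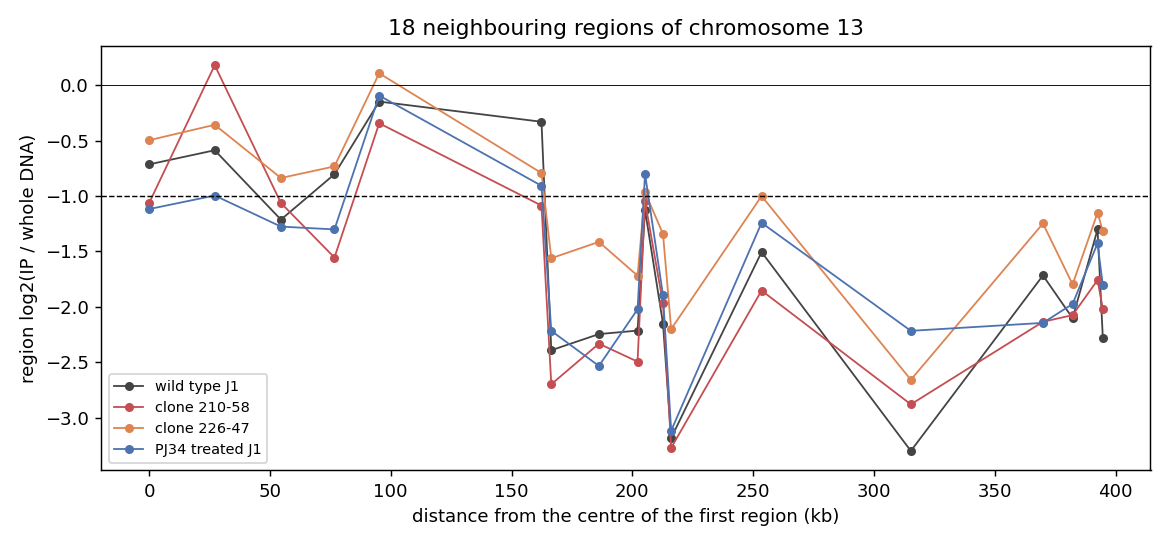
The region log2 ratio of IP to whole DNA on the 4 arrays for the 18 regions of chromosome 13 between 23376261 and 23771457, plotted by distance from the centre of the first region in kb. The dashed line is -1. Of the regions 13 are members, and the lowest values on wild type, -3.18 and -3.30, are at the 2 lowest regions of the array, with clone 226-47 mostly the highest.

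Most members stood alone. In order along the chromosomes, 1156 were flanked by regions that were no members, 152 series had 2 members, 23 had 3, 3 had 4 and 1 had 8. The other series of 4 were at chr16:17319018-17444931 and at chr1:133353216-133738828. After the chromosome 13 stretch, the windows with the most members were at chr7:126063883-126999957 (10 of 28 regions), chr11:69051697-69838065 (10 of 39) and chr8:87020708-87973671 (10 of 51).

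The values of the nearest other regions, whose probes the choice of a member did not use, were also lower. Within 2 kb of a member there were 134 neighbouring regions with a median of -0.28, and 26 of them (19.4%) were members. Within 2 kb of other regions there were 1196 neighbours with a median of 0.29, of which 9.03% were members. At up to 100 kb the medians were -0.19 beside members and 0.01 beside other regions, with 15.5% and 11.6% members among them. These shares are descriptions, since neighbours share DNA fragments, base composition and probe design.

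A few members lay next to strongly methylated DNA. Within 5 kb, 12 neighbours of members (4.51% of 266) were at 2 or above on the mean of the arrays, against 11.6% of 2528 neighbours of other regions. The closest pair was on chromosome 5, where the member from 138015347 to 138016748 (10 probes) had -1.46 on wild type, -0.89 on clone 210-58, -0.76 on clone 226-47 and -1.03 on PJ34. Only 565 bp away, the region from 138017313 to 138018323 (10 probes) had 1.99, 2.43, 1.67 and 2.28. The widest step was on chromosome 2, where the member from 128820938 to 128821335 had -2.03, -2.38, -1.29 and -1.56. The neighbour from 128817187 to 128817450, 3488 bp away, had 4.35, 4.53, 3.90 and 4.89. On chromosome 12 the member from 87130793 to 87131373 was at -1.05, -1.38, -0.93 and -1.56 and its neighbour from 87133187 to 87133633 at 3.85, 3.55, 2.28 and 4.16. In these pairs the neighbour was above the member on all 4 arrays. Both sides were picked by their means over the same arrays, which makes this likely from the choice alone.

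Members resembled other regions in size. They had a median of 6 probes, as all regions did, and a median length of 680 bp against 664 bp, with 8.90 and 8.96 probes per kb. The share of members was 9.82% among regions of 3 probes, 12.4% among those of 6 to 8 probes and 6.17% among those of 15 or more. By length it rose from 6.25% at up to 300 bp to 12.6% between 500 and 1000 bp, and was 7.41% above 1500 bp. Regions at 2 or above, the strongly methylated end, were shorter, with a median of 4 probes and 407 bp.

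The property that differed most was the length of the probes. Probes on this array are 44 to 60 bases long, and most have 45. Those over 45 bases were 34.1% of member probes and 23.7% of the probes of all regions. They were 26.3% in regions from -1 to -0.5 and 29.0% in regions at 2 or above. A share above that of all regions was thus also seen at the strongly methylated end. The share of members was 4.35% among the 3034 regions without a longer probe, 8.19% where up to 25% of the probes were longer, 15.7% from there to 50%, 23.3% to 75% and 26.3% above that. Over all regions the median probe of 45 bases was at 0.16, one of 46 or 47 bases at -0.45, and one of 51 to 55 bases at -0.91. Within members the longer probes had a median of -1.88 and those of up to 45 bases -1.17, and in the 1386 members with both kinds the longer ones were lower in 1209, by a median difference of -0.79. In the other regions the medians were -0.48 for longer probes and 0.28. Members were also read on their shorter probes. On probes of up to 45 bases alone, 1198 members kept at least 3 probes. Of these 689 (57.5%) were still below -1, 1133 below -0.5 and 1190 below 0. The choice of members used these probes too, so their low values were partly fixed by it. Of 11970 regions measured on probes of exactly 45 bases, 737 were below -1. The part of probe length in the choice was not tested. The whole-DNA signal moved the same way, since members made up 14.7% of the fifth of regions with the weakest Cy3 and 5.45% of the fifth with the strongest.

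Probes at the ends of a region were lower than those inside. In the 877 members of at least 6 probes the first probe had a median of -1.52 and the last -1.54, whereas the second, inner and next-to-last probes were at -1.39, -1.40 and -1.36. The end probes were also the longer ones, with 59.4% and 61.5% over 45 bases against 23.6% of inner probes. Among probes of up to 45 bases the order turned: the ends were at -1.05 and -1.11 and the inner probes at -1.17. In other regions the ends were at -0.17 and -0.22 and the inner probes at 0.02, and at 0.17, 0.19 and 0.13 for probes of up to 45 bases.

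**Figure D4:**
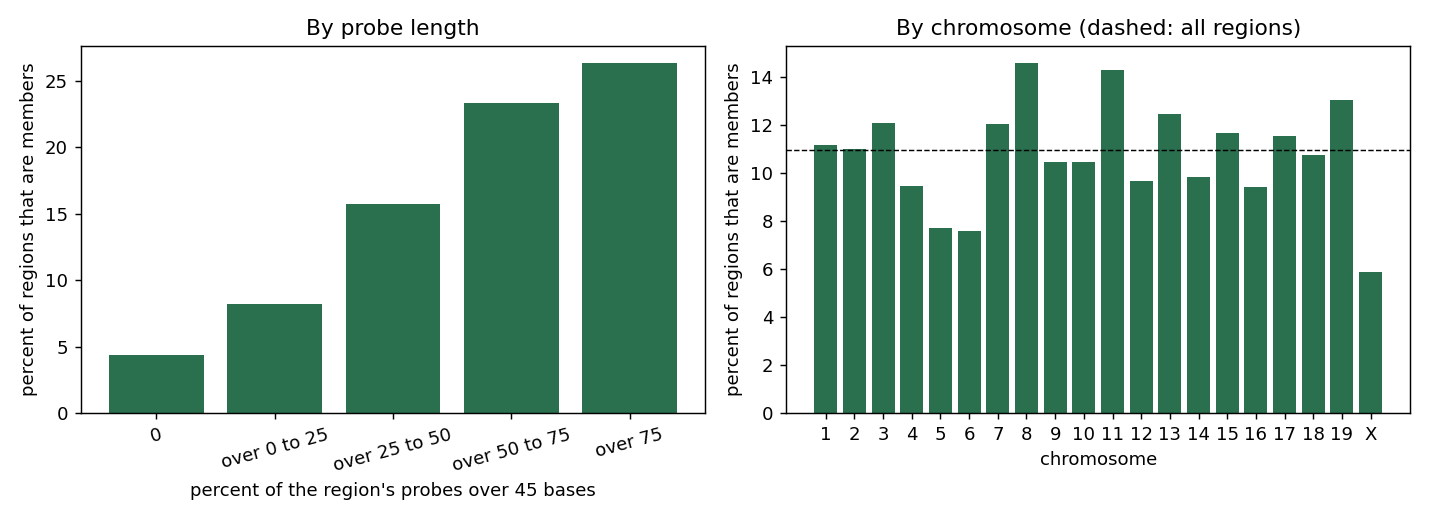
Left, the percent of regions that are members by the percent of the region's probes that are longer than 45 bases, from 4.35% to 26.3%. Right, the percent of regions that are members on each chromosome, with the share over all regions, 10.97%, as a dashed line. Chromosomes 8 and 11 are the highest and X the lowest.

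All 19 autosomes and the X chromosome held members. The share was highest on chromosomes 8 (118 of 810 regions, 14.6%) and 11 (172 of 1202, 14.3%), and lowest on X (23 of 390, 5.90%), chromosome 6 (7.59%) and chromosome 5 (7.72%). The whole-DNA signal of chromosomes 8, 11 and X also differed between the arrays, which does not tell which sample has the changed copy number. Relative to wild type, member probes of chromosome 8 had a median Cy3 of -0.44 in clone 210-58, -0.48 in clone 226-47 and -0.02 in PJ34, those of chromosome 11 of 0.51, 0.03 and -0.03, and those of X of 0.22, 0.07 and 0.04. Over all probes, the other autosomes lay between -0.10 and 0.03 on these 3 arrays. On the wild type array alone 18.5% of chromosome 8 regions were below -1, on PJ34 22.5%, on clone 210-58 17.2% and on clone 226-47 3.95%, against 12.8%, 14.1%, 15.6% and 4.37% of all regions. The share of chromosome 8 was above that of all regions on the first 3 of these arrays and below it on clone 226-47. Chromosome 11 had 14.6% on wild type, 15.9% on PJ34, 24.7% on clone 210-58 and 5.66% on clone 226-47. The excess was largest in clone 210-58, where the whole-DNA signal of this chromosome was higher, and members of chromosome 11 there were -0.30 from wild type at the median against -0.16 for all members. On X the share below -1 was 6.67% on wild type, 10.3% on clone 210-58, where the whole-DNA signal of X was the highest, 1.03% on clone 226-47 and 6.41% on PJ34. The part of the whole-DNA signal in these shares was not tested.

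The members with the most probes give the best-sampled low islands. The largest, at chr1:180363992-180367637 (32 probes), had -1.13 on wild type, -1.17 on clone 210-58, -0.71 on clone 226-47 and -1.12 on PJ34. At chr5:143080100-143083906 (28 probes) the values were -1.36, -0.72, -0.71 and -1.55, so both clones lay above both J1 samples. Region chr1:192883008-192886256 (25 probes) was at -1.28, -1.48, -0.99 and -1.40, and from 133353216 to 133355999 (24 probes) at -1.30, -1.13, -0.76 and -1.20. The lowest of these long members was at chr10:98691160-98693967 (23 probes), at -1.89, -1.94, -1.27 and -1.82, followed by chr3:107459958-107462229 (21 probes) at -1.29, -1.50, -0.94 and -1.58. Clone 226-47 was again the highest array in all 6. Cy5 was well above background for 26 of the 32 probes of the largest on wild type and for 13 of the 23 of that on chromosome 10.

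Some members were mixtures of low and high probes. At chr1:138050527-138051197 (5 probes) the SD over probes was 2.71 around a mean of -1.06, the largest of all members. At chr13:21723611-21723883 (3 probes) it was 2.61, and none of the probes was well above background on wild type, clone 210-58 or PJ34. At chr3:88706869-88707741 (5 probes) it was 2.50. In these 3 the mean of the region describes no single probe.

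The comparison of the Parp-1 deficient clones with wild type asks whether low islands gained or lost methylation without the enzyme. By limma's test over all regions with Benjamini-Hochberg adjustment at 0.05, 1 of the 1549 members was higher in the clones, against 1.19% of all regions called higher, and 0 were lower, against 1.59%. At an unadjusted p under 0.05 in the same limma fit, 8 members were higher and 2 lower, while 1693 of all 14121 regions (11.99%) passed in either direction. The rule for members limits what can be found: a region that was high on an array is unlikely to have a mean below -1. The test was also less precise here than elsewhere. The fit's SE had a median of 0.73 over members and 0.32 over all regions, which gives a 95% interval of about 1.43 on each side of a typical member's difference. It reached 17.3 at the lowest mean levels. That value was set by the fitted trend of variance with mean level and is no measured spread. At chr13:23691502-23692124, where it was 17.3, the SD between the clones was 0.16. The SD between the clones themselves had a median of 0.42 over members and 0.21 over all regions. Among members this difference went mostly 1 way. Clone 210-58 minus clone 226-47 had a median of -0.59, and 38 of 1549 were higher in clone 210-58. The SD over members thus holds a shift between the 2 arrays and is not scatter alone. Without the mean-variance trend the SE was 0.39 for every region, and 4 members were called higher and 1 lower, of 182 regions called in all. Differences of the size seen in most members were therefore not detectable by the fit with the trend, and the calls changed with the processing.

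The called member was at chr2:33402658-33402988 (4 probes), the only member above 1 on any array. It had -2.47 on wild type, 1.10 on clone 210-58, -0.81 on clone 226-47 and -2.01 on PJ34. The clones were above both J1 samples, but they were further from each other (SD 1.35) than the SE shows. The difference from wild type was 2.61 (SE 0.40, limma adjusted p = 1.29e-07), with 3.57 for clone 210-58 and 1.66 for clone 226-47. Cy5 was well above background for 2 of its 4 probes on wild type and for all 4 on the other arrays. The call was not made after quantile normalization (limma adjusted p = 0.11) or intensity loess (limma adjusted p = 0.33), where the difference was 2.37 and 1.58, and over 4 other settings the adjusted p was 3.10e-14 to 1.56e-05. The next lowest adjusted p over members was 0.084.

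Most members differed from wild type by less than 1. The median difference of the clone mean from wild type was 0.14 over members and 0.01 over all regions, with quartiles of -0.10 and 0.36 over members. After quantile normalization it was 0.01 over members and -0.01 over all regions, and with equal median absolute deviations 0.08 and 0.03. It was 0.095 and -0.007 with intensity loess, 0.12 and 0.02 with only probes well above background, and 0.15 and 0.11 with normexp. The clones did not move together: clone 210-58 was below wild type in most members, with a median of -0.16 and 530 of 1549 higher, while clone 226-47 was above it in 1402, with a median of 0.43. By a difference of at least 1 in the clone mean, with both clones on that side, 21 members were higher and 5 lower, against 1.35% and 2.33% of all regions. For single clones the count at that size was 60 for clone 210-58, of which 20 were higher and 40 lower (all regions 6.31% in either direction), and 67 higher and 1 lower for clone 226-47 (0.963% and 2.96%). Clone 226-47, the array with the narrowest profile, thus carried the balance towards higher values. Wild type and clone 210-58 shared a slide, so the values for clone 210-58 are also the within-slide ones.

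**Figure D5:**
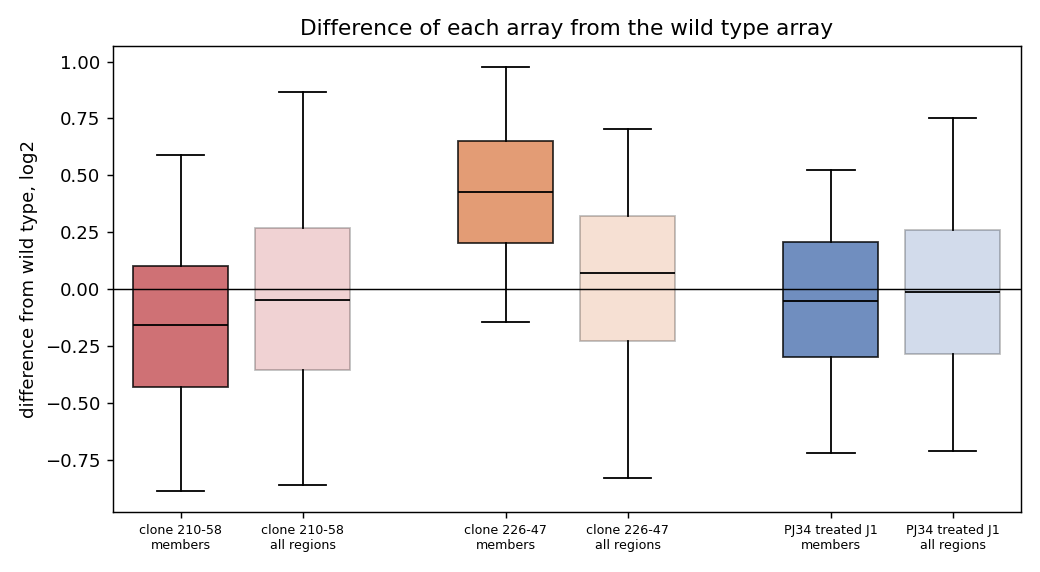
Differences in region log2 ratio from the wild type array for clone 210-58, clone 226-47 and PJ34 treated J1, over the 1549 members (dark) and all 14121 regions (light). Boxes show quartiles and medians and whiskers the 5th and 95th percentiles; all 3 share the single wild type array. Clone 226-47 is above wild type in most members, at a median of 0.43, and the other arrays are close to it or lower.

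Set against PJ34 treated cells, the clones were higher at 1 member, against 0.942% of all regions called higher by limma with Benjamini-Hochberg adjustment, and lower at 0, against 0.404%. It was the same region of chromosome 2, with a difference of 2.16 (SE 0.34, limma adjusted p = 4.69e-07). This call too was lost after quantile normalization (limma adjusted p = 0.36) and intensity loess (limma adjusted p = 0.61). By a clone mean at least 1 from PJ34, with both clones on that side, 18 members were higher and 0 lower, against 1.30% and 1.47% of all regions. At an unadjusted p under 0.05 limma gave 7 members higher and 0 lower, and 1172 of all regions (8.30%) in either direction. The median difference over members was 0.18. It was -0.09 after quantile normalization and -0.06 after scaling the arrays to the same median absolute deviation and -0.02 after intensity loess, so its direction depends on the scaling.

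PJ34 treated cells had 1 array against 1 of wild type, so no p-value is given. The median difference over members was -0.05, and 692 of 1549 were higher. It turned to 0.08 after quantile normalization, 0.11 with equal median absolute deviations, 0.10 with intensity loess and 0.03 with normexp, so no direction holds over these settings. At least 1 separated 27 members, 7 higher and 20 lower after PJ34, against 2.44% and 1.25% of all regions. The arrays were on different slides, and slide and treatment cannot be told apart. The largest difference upwards was at chr9:43880930-43881476 (4 probes), from -2.13 on wild type to -0.63 on PJ34, with -0.999 and -0.90 in clones 210-58 and 226-47. At chr10:79562964-79563404 (3 probes) wild type was at -2.67 with 1 probe well above background, and PJ34 at -1.49. In both regions wild type was the lowest of the 4 arrays. At chrX:135802899-135803627 (6 probes) wild type had -1.44, the clones -1.28 and -1.03, and PJ34 -0.31. At chr7:126986765-126987373 and chr3:34833492-34833964 PJ34 was higher than wild type by 1.12 and 1.09.

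The largest difference downwards after PJ34 was at chr4:129610050-129610331 (3 probes), from -0.22 on wild type to -2.11, with -1.05 and -0.81 in the clones. At chr17:15100959-15101181 (3 probes) wild type was at 0.04, the clones at -1.62 and -1.14 and PJ34 at -1.74. Wild type was the highest array in both, and on PJ34 a single one of the 3 probes passed the Cy5 background flag. At chr8:37926221-37926974 (5 probes) all probes were well above background on both arrays, at -0.54 on wild type and -1.85 on PJ34, with -1.72 and -1.06 in the clones. The differences of chr11:20355275-20355588 and chr7:30334643-30335109 were -1.37 and -1.22.

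The clones differed from each other at 106 members by at least 1, and clone 210-58 was the lower in 105, against 0.977% of all regions lower and 1.41% higher. The median difference over members, clone 210-58 minus clone 226-47, was -0.59, and 38 members of 1549 were higher in clone 210-58. It shrank to -0.10 after quantile normalization, -0.23 with equal median absolute deviations and -0.08 with intensity loess, and turned to 0.14 with normexp. The regions next above the limit, from -1 to -0.5, had a median of -0.35. PJ34, which shared a slide with clone 226-47, was lower than it by at least 1 in 86 members (all regions 1.10%) and higher in 0 (3.82%), with a median of -0.47. The largest difference with clone 210-58 lower was at chr11:72506145-72506552 (4 probes), at -2.76 against -1.11, with -1.59 on wild type and -1.69 on PJ34. Chromosome 8 from 78005521 was second. At chr4:41911536-41912063 clone 210-58 had -2.73 and clone 226-47 -1.14, at chr1:188916297-188916645 -2.41 and -0.82, and at chr11:48698757-48699248 -2.69 and -1.20. In the opposite direction only the called region of chromosome 2 exceeded 1. It was followed by chr11:120003691-120004607 (6 probes), at -0.19 in clone 210-58 and -0.97 in clone 226-47 with -1.72 on wild type and -1.47 on PJ34. At chr8:91935237-91935624, chr7:100367245-100367685 and chr2:125364840-125365188 clone 210-58 had -0.53, -0.48 and -0.38 and clone 226-47 -1.02, -0.96 and -0.86.

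The range of a member over the 4 arrays had a median of 0.75, with quartiles of 0.59 and 0.94, against a median of 0.59 for all regions. Besides the called region, the widest ranges were on chromosome 7 from 100367245 (1.94), chromosome 4 from 129610050 (1.89), chromosome 17 from 15100959 (1.78), chr7:15777416-15777715 (1.76) and chrX:145928580-145928993 (1.73). Each of these had 3 probes. The steadiest member was at chr10:126665690-126666010 (4 probes), with -1.09 on wild type, -1.02 on clone 210-58, -0.96 on clone 226-47 and -1.02 on PJ34. At chr13:77598536-77599281 (8 probes) the values were -1.31, -1.16, -1.19 and -1.21. Ranges of 0.15 to 0.17 were seen at chr17:33235662-33235974, chr3:95956718-95957163, chr13:67368393-67369331 and chr2:69686378-69686679.

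Pearson's r over the 1549 members was 0.39 between wild type and clone 210-58, 0.53 between wild type and clone 226-47, 0.50 between wild type and PJ34, 0.47 between clone 210-58 and PJ34, 0.62 between clone 226-47 and PJ34, and 0.68 between the clones, against 0.92 to 0.96 over all 14121 regions. The choice by the mean of the same arrays narrows the range of levels, so a lower r within members was fixed by it. These are descriptions of regions that share probes and probe length. The pair on the first slide had the lowest value and the clones, on different slides, the highest.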

How the data were processed

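Each array file holds Cy5 and Cy3 intensity as deposited by the authors. Feature Extraction wrote it, version 10.7.3.1 per the file headers and 9.1 per the submitters' processing notes, background-subtracted and dye-normalized by a linear factor per channel; the raw median and background intensity and the spot flags were also used. The deposited value table holds the ratio of processed Cy5 to Cy3, equal within 1e-06, linear and not centred, with medians of 0.772 to 0.832. Other flags recorded by the authors' software (saturation, outliers) are deposited as 0 or 1, and no probe was saturated.

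From each log2 ratio the median of its array over 97651 probes was subtracted, with no loess or quantile step. Left out were 5950 control spots, 442 probes without a position and 30 with an outlier flag of the spot on any array. Probes in runs of fewer than 3 were also left out, which left 95657 probes in 14121 regions. Differences were fitted with limma 3.58.1 in R 4.3.3 (lmFit, eBayes with a trend) over all regions, 2 clones against 1 array, with 1 residual degree of freedom. The p-values rest on the spread between the 2 clones pooled over regions of like level, not on a region's own spread, and no other replicate enters them. Single arrays were compared by a size of 1.

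Members and lists were chosen with earlier results of these data known. Regions were named by rank: the 12 lowest, 3 on each side of the limit, 6 with the most probes, up to 8 called each way, the 5 largest differences each way by size, the 6 widest and 6 narrowest ranges, and the 3 largest probe SDs. Windows, series and neighbours were added after the data were seen. The gene table was for GRCm38, so no gene was paired with a region.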

Additional observations from a re-analysis of the deposited data

How the results depend on the processing

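The number of members was 1549, and 37 with normexp on raw median signals, 380 with intensity loess (263 of them members), 622 of 13588 regions with only probes well above background, 826 with a limit lower by 0.25 and 540 with every array below -1. By rank, 890 members were among the 1549 lowest regions with normexp and 763 with intensity loess, against 1527 with quantile normalization. Other settings were added after seeing the data, and some of them left fewer regions to measure. On 45-base probes alone 737 of 11970 regions were below -1, and 687 of the 737 were members. Subtracting the median of probes of the same length gave 1208 of 14121. Leaving out end probes gave 1058 of 10023. In a separate setting that kept the end probes, dropping 8351 probes with any outlier flag, of spot or background, gave 1552 of 13691. Leaving out each array in turn gave 1368 to 1879. The 12 lowest members lay between -0.96 and -0.10 with normexp, so none was below -1 there. Normexp added 50 to both channels, which draws the ratios of weak signals towards 0. A limit of -1 or a size of 1 is therefore harder to reach on its scale, and counts with normexp are not on a like scale with the others.

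Calls of members by limma for the clones against wild type were 1 of 393 regions called in all, and 5 of 182 without the trend (4 higher, 1 lower), 6 of 426 with normexp (6 higher), 24 of 781 with equal median absolute deviations (18 higher, 6 lower), 2 of 302 with medians over probes (1 each way) and 0 of 0 with intensity loess (180 members at an unadjusted p under 0.05). With quantile normalization there was 1 of 27, lower. Against PJ34 they were 1 of 190, and 3 of 95 without the trend, 3 of 178 with normexp, 4 of 257 with equal median absolute deviations (3 higher, 1 lower), 2 of 279 with medians over probes, 3 of 250 with only probes well above background (2 higher, 1 lower), and 0 of 10 with quantile normalization and 0 of 1 with intensity loess (136 and 125 members at an unadjusted p under 0.05). By size, with each clone left out in turn, members differing from wild type numbered 60 to 68 against 26, and from PJ34 23 to 86 against 18.

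Members differing by 1 between PJ34 and wild type numbered 27 (7 higher, 20 lower), and 0 with normexp, 14 with quantile normalization (10 higher, 4 lower), 6 with intensity loess (5 higher, 1 lower), 66 with medians over probes (16 higher, 50 lower) and 9 with only probes well above background. With equal median absolute deviations there were 19, of which 15 higher, and a size of 0.5 gave 279. Between the clones they numbered 106, and 1 with normexp, 4 with quantile normalization, 9 with equal median absolute deviations, 6 with intensity loess, 26 with only probes well above background and 973 at a size of 0.5. A fit that blocks on slide was not run, since it leaves no residual degrees of freedom. The low Cy5 signal of members limits every one of these values.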
